A study of Arabidopsis thaliana with 18 samples.

Results

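GI, COR27, COR15A and COR47 are 4 Arabidopsis transcripts of the circadian clock and the cold response, each read by 1 probe set of the Affymetrix ATH1 array. A probe set was taken as a member when the platform annotation gave it that gene alone, which found 4 genes of the 13356 named this way, on 4 of the 22810 probe sets of the array, and all 4 passed the filter on low signal that left 13652 for testing. GI is AT1G22770 (264211_at), COR27 is AT5G42900 (249174_at), COR15A is AT2G42540 (263497_at) and COR47 is AT1G20440 (259570_at). Genome positions are left out because no source used here states the build the array was designed on.

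The 18 arrays carry RNA of plants of the wild-type accession Col-0. On 9 arrays the plants had received 0.30 mM SA (salicylic acid, which signals in plant defence) in 0.02% silwet, a wetting agent, and on the other 9 they had received 0.02% silwet alone, so the surfactant is common to both treatments. The titles number the arrays, and the sets of 3 consecutive numbers are called triplets here: SA arrays 10 to 12, 13 to 15 and 16 to 18 are SA triplets 1, 2 and 3, and silwet arrays 1 to 3, 4 to 6 and 7 to 9 are silwet triplets 1, 2 and 3. Each triplet holds replicate numbers 1, 2 and 3. The labels used here name no tissue, plant age, harvest time or time of day and do not say what a triplet stands for; the study is known to have harvested at several times, so a triplet may be a time. Nothing in them says that replicates came from separate plantings, so p-values cover the spread between these samples only, and that spread could be technical.

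The circadian clock of plants is a set of interlocked transcription loops that keep time through the day and night. GI encodes GIGANTEA, a large evening protein that steadies clock components and links the clock to flowering. COR27 encodes a small protein under the control of both the clock and cold, which acts in the timing of flowering and in freezing tolerance. COR15A encodes a chloroplast stroma protein that protects membranes during freezing, and COR47 encodes a dehydrin, a hydrophilic protein that accumulates in cold and drought. Transcription factors of the CBF family are known to raise COR15A and COR47 in the cold, and the clock is known to set how strongly plants respond to cold.

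Signals are log2 of the deposited MAS5 intensity, and each probe set was set only against itself. The leaf markers RCA, LHCB4.1 and LHCB4.2 had log2 signals of 11.12 to 11.87, 11.39 to 12.02 and 10.45 to 11.34. Of the root markers, PYK10 lay at 5.31 to 8.03, and EXPA7 was dim, at 2.22 to 4.12, and was left out by the filter. No flower or seed marker was named by the annotation. Array medians lay between intensities of 29.7 and 36.3. SA array 10 stood apart in RNA quality, with a log2 ratio of 3' to 5' actin signal of 6.85 against 0.15 to 1.51 on the other 17 arrays, and a GAPDH ratio of 3.36 against -0.06 to 1.32. The top end of the arrays moved with the triplets: the log2 signal of the 99th percentile averaged 10.53 in SA triplet 1, 10.63 in SA triplet 2 and 10.79 in SA triplet 3, and 10.68, 10.70 and 10.64 in silwet triplets 1, 2 and 3. Its part in the results for the bright transcripts COR15A and COR47 is given below as values under quantile normalization, which gives all arrays the same distribution.

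GI, the evening clock gene, varied most of the 4 and did so from array to array rather than by treatment. On the SA arrays its log2 signal was 8.16, 8.16 and 7.83 in triplet 1, 8.48, 8.51 and 7.03 in triplet 2, and 8.94, 7.61 and 8.93 in triplet 3, for replicates 1, 2 and 3 in that order. On the silwet arrays it was 8.30, 8.29 and 8.25 in triplet 1, 8.55, 8.27 and 6.90 in triplet 2, and 9.05, 8.51 and 8.96 in triplet 3. The lowest SA array was replicate 3 of triplet 2, and so was the lowest silwet array. In the 18 arrays together the SD was 0.61, larger than that of all but 12.3% of tested probe sets, of which the median SD was 0.33.

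COR27, of clock and cold control, was lowest in triplet 2 under both treatments. On the SA arrays its log2 signal was 9.39, 9.07 and 8.54 in triplet 1, 8.77, 7.80 and 8.69 in triplet 2, and 9.34, 9.39 and 8.78 in triplet 3. On the silwet arrays it was 9.40, 9.11 and 8.99 in triplet 1, 8.89, 7.79 and 8.37 in triplet 2, and 9.22, 8.67 and 8.82 in triplet 3. Replicate 2 of triplet 2 was the lowest array of each treatment, at nearly the same signal. COR27 had an SD of 0.49 over the 18 arrays, and 21.8% of tested probe sets had a larger one.

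COR15A, the chloroplast freezing-protection gene, spanned the narrowest range of the 4. On the SA arrays its log2 signal was 11.10, 10.82 and 10.92 in triplet 1, 10.86, 11.03 and 11.69 in triplet 2, and 11.65, 11.65 and 11.62 in triplet 3. On the silwet arrays it was 11.38, 11.25 and 11.68 in triplet 1, 11.13, 10.81 and 11.51 in triplet 2, and 11.66, 11.20 and 11.20 in triplet 3. All 3 SA arrays of triplet 1 lay below all 3 silwet arrays of triplet 1, and the treatments overlapped in triplets 2 and 3. COR15A had an SD of 0.32, and 51.0% of tested probe sets had a larger one. COR15A has a closely related neighbour, COR15B, and signal shared between their probe sets through cross-hybridisation cannot be told apart here, so values of either are uncertain in that respect.

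COR47, the dehydrin gene, had the widest range between SA arrays of different triplets. On the SA arrays its log2 signal was 9.99, 9.26 and 9.81 in triplet 1, 10.22, 9.87 and 10.70 in triplet 2, and 11.32, 10.87 and 10.75 in triplet 3. On the silwet arrays it was 10.23, 9.91 and 10.51 in triplet 1, 10.26, 9.66 and 10.36 in triplet 2, and 11.11, 10.08 and 10.48 in triplet 3. The SA arrays of triplet 3 all lay above those of triplet 1, and the silwet arrays of these triplets overlapped. The same held for COR15A, with SA arrays at 11.62 to 11.65 in triplet 3 and 10.82 to 11.10 in triplet 1. The share of all tested probe sets separated in this way is not given here. In the test of SA triplet 3 against SA triplet 1, 16.9% of tested probe sets passed as higher. COR47 had an SD of 0.52, and 18.1% of tested probe sets had a larger one.

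**Figure D1:**
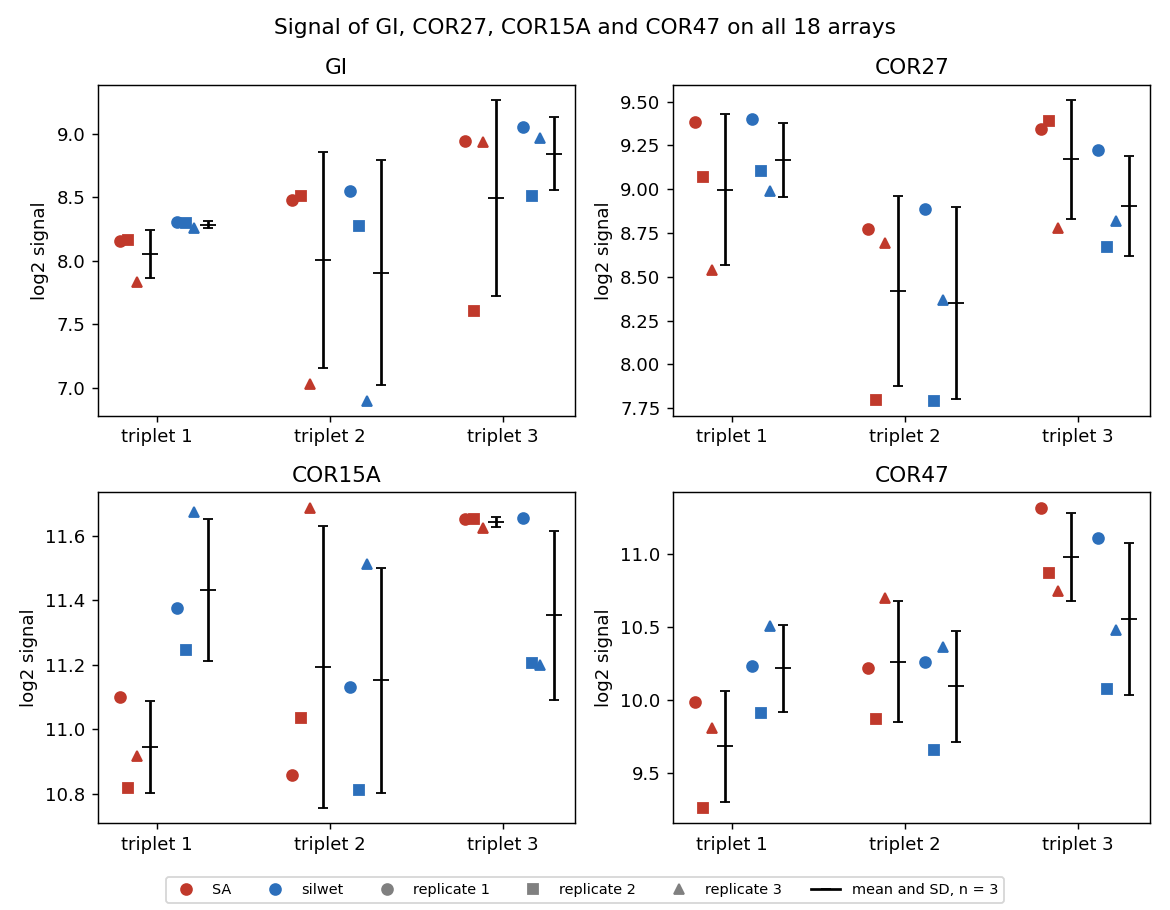
Log2 signal of GI, COR27, COR15A and COR47 on each array, with SA in red and silwet in blue, by triplet. Marker shapes give the replicate number and the black bars the mean and SD of 3 arrays. COR47 lies at 9.26 to 9.99 on the SA arrays of triplet 1 and at 10.75 to 11.32 on those of triplet 3, and GI is lowest on replicate 3 of triplet 2 under both treatments.

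The order of the 6 groups differed between the genes, and few neighbours in an order were separated by more than their spread. GI was highest in silwet triplet 3, at 8.84 ± 0.29, followed by SA triplet 3 at 8.49 ± 0.77, silwet triplet 1 at 8.28 ± 0.03, SA triplet 1 at 8.05 ± 0.19, SA triplet 2 at 8.01 ± 0.85 and silwet triplet 2 at 7.91 ± 0.88 (mean ± SD of log2 signal, n = 3 arrays each). Only silwet triplet 1 and SA triplet 1 were further apart than the larger of their SDs. COR27 ran through SA triplet 3 at 9.17 ± 0.34, silwet triplet 1 at 9.17 ± 0.21, SA triplet 1 at 9.00 ± 0.43, silwet triplet 3 at 8.90 ± 0.29, SA triplet 2 at 8.42 ± 0.54 and silwet triplet 2 at 8.35 ± 0.55 (SD, n = 3 each), with no neighbours apart by more than the larger SD.

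COR15A was highest in SA triplet 3, at 11.64 ± 0.02, then in silwet triplet 1 at 11.43 ± 0.22, silwet triplet 3 at 11.35 ± 0.26, SA triplet 2 at 11.19 ± 0.44, silwet triplet 2 at 11.15 ± 0.35 and SA triplet 1 at 10.94 ± 0.14 (SD, n = 3 each), and no neighbours were separated by more than the larger SD. COR47 was highest in SA triplet 3, at 10.98 ± 0.30, then in silwet triplet 3 at 10.56 ± 0.52, SA triplet 2 at 10.26 ± 0.41, silwet triplet 1 at 10.22 ± 0.30, silwet triplet 2 at 10.09 ± 0.38 and SA triplet 1 at 9.69 ± 0.38 (SD, n = 3 each). The last 2 of these were apart by more than the larger SD. The SA groups of triplets 3 and 1 were thus the top and the bottom for both COR15A and COR47.

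None of the 4 genes passed the test between SA and silwet when the 3 triplets were averaged. The difference in log2 signal, SA minus silwet, was -0.16 with a standard error of 0.26 for GI, 0.06 with 0.17 for COR27, -0.05 with 0.12 for COR15A and 0.02 with 0.16 for COR47 (limma over 6 groups of 3 arrays, adjusted p = 1.00 for each). The 95% intervals ran from -0.71 to 0.39 for GI, -0.31 to 0.42 for COR27, -0.30 to 0.20 for COR15A and -0.33 to 0.37 for COR47. Of all tested probe sets, 4 (0.0293%) passed an adjusted p of 0.05. Over the 9 arrays of each treatment, the mean log2 signal was 8.18 ± 0.62 with SA and 8.34 ± 0.62 with silwet for GI, 8.86 ± 0.51 with SA and 8.81 ± 0.49 with silwet for COR27, 11.26 ± 0.38 with SA and 11.31 ± 0.28 with silwet for COR15A, and 10.31 ± 0.64 with SA and 10.29 ± 0.41 with silwet for COR47 (SD, n = 9 each).

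In triplet 1 COR15A and COR47 had lower signals with SA, and whether this passed the test depended on pairing the arrays. COR15A differed by -0.49 (standard error 0.21, 95% interval -0.92 to -0.05, a ratio of 0.713) with an adjusted p of 0.133, and COR47 by -0.53 (standard error 0.28, interval -1.13 to 0.07, a ratio of 0.691) with an adjusted p of 0.241 (limma). GI and COR27 differed by -0.23 and -0.17, with adjusted p of 0.787 and 0.770. None of the 4 passed, where 12.3% of tested probe sets did and 6.11% passed in the lower direction. GI and COR15A each had all 3 SA arrays below all 3 silwet arrays, as had 17.8% of tested probe sets.

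The replicate numbers paired the arrays: SA and silwet arrays of the same triplet and number deviated together from their group means. With these 9 pairs as a block, a fit added after the values were seen, COR15A fell by 0.49 with SA in triplet 1 (standard error 0.13, adjusted p = 0.0172) and COR47 fell by 0.53 (standard error 0.13, adjusted p = 0.0111) (limma). SA was the lower array in 3 of 3 pairs for each, but also for GI and COR27, which did not pass in this fit. The share of all tested probe sets with SA lower in 3 of 3 pairs is not given here. In that fit 26.1% of tested probe sets passed in triplet 1 and 14.3% passed in the lower direction. Without the pair of replicate 2 or that of replicate 3 in triplet 1 neither COR15A nor COR47 passed. Over the 9 single pairs left out in turn, the adjusted p (limma) was 0.0151 to 0.148 for COR15A and 0.00673 to 0.0901 for COR47. With the pairs and quantile normalization, COR47 still fell, by 0.49 (adjusted p = 0.00696), while COR15A differed by -0.22 (adjusted p = 0.168). Without SA array 10, in the fit of 6 groups, the differences in triplet 1 were -0.57 for COR15A and -0.68 for COR47, with adjusted p of 0.139 and 0.188.

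In triplets 2 and 3 none of the 4 genes passed in either fit. The differences in triplet 2 were 0.10 for GI, 0.07 for COR27, 0.04 for COR15A and 0.17 for COR47, with adjusted p of 1.00 for each in the fit of 6 groups, where 0.3% of tested probe sets passed. In triplet 3 they were -0.35 for GI, 0.27 for COR27, 0.29 for COR15A and 0.42 for COR47, with adjusted p of 0.957 to 0.975, where 0.0146% passed. With the pairs as a block 1.64% of tested probe sets passed in triplet 2 and 0.286% in triplet 3. The value for GI in triplet 3 rested on SA array 17: without it the difference was 0.10. That array also had the highest actin, GAPDH and ubiquitin 3' to 5' log2 ratios after SA array 10 for the first 2 and of all arrays for the third, at 1.51, 1.32 and 2.13. The part of RNA quality in that value was not tested.

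The SA effect on COR47 differed between the triplets in the paired fit. Its pairs differed by -0.24, -0.65 and -0.70 in triplet 1, by -0.04, 0.21 and 0.33 in triplet 2, and by 0.21, 0.79 and 0.27 in triplet 3, for replicates 1, 2 and 3. SA was lower in all 3 pairs of triplet 1 and higher in all 3 pairs of triplet 3. The same held for COR15B and for the leaf markers RCA and LHCB4.1. The share of all tested probe sets with such a turn is not given here. For COR47 the F test of a differing SA effect gave an adjusted p of 0.00728 with the pairs as a block and 0.288 without (limma). With the block it stayed between 0.00402 and 0.0413 when each pair was left out. With the block and quantile normalization it was 0.00635. COR15A's pairs differed by -0.28, -0.43 and -0.76 in triplet 1, by -0.27, 0.22 and 0.18 in triplet 2, and by -0.01, 0.45 and 0.43 in triplet 3. The adjusted p for COR15A was 0.0245 with the block and 0.216 without, 0.0179 to 0.109 when each pair was left out of the block fit, and 0.213 with the block and quantile normalization. GI and COR27 had adjusted p of 0.284 and 0.298 with the block and of 0.901 and 0.815 without. In the paired fit 21.4% of tested probe sets passed this test, and 8.36% did without the block.

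**Figure D2:**
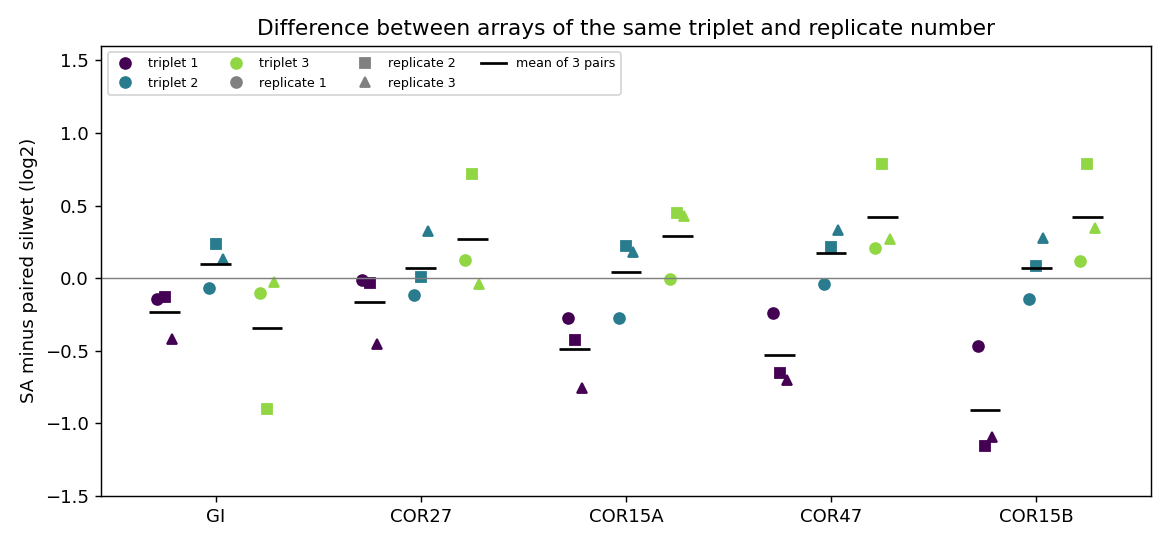
Log2 signal of each SA array minus that of the silwet array of the same triplet and replicate number, for GI, COR27, COR15A, COR47 and COR15B. Colours give the triplet, marker shapes the replicate number and the black lines the mean of 3 pairs. The COR47 pairs average -0.53 in triplet 1 and 0.42 in triplet 3, and those of COR15B -0.91 and 0.42.

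Among the SA arrays, COR47 and COR15A differed between triplets, and the silwet arrays showed no such call. COR47 was 1.29 higher in SA triplet 3 than in SA triplet 1 (standard error 0.28, 95% interval 0.69 to 1.89, a ratio of 2.45; adjusted p = 0.00242), and COR15A was 0.70 higher (standard error 0.21, interval 0.26 to 1.13, a ratio of 1.62; adjusted p = 0.0159) (limma). This contrast was added after the values were seen. It passed for 31.3% of tested probe sets, and for 16.9% in the higher direction. The F tests over the 3 SA triplets gave adjusted p of 0.00696 for COR47, 0.0402 for COR15A, 0.139 for COR27 and 0.637 for GI, where 30.1% passed. With the replicate number as a block, COR27 also passed, at an adjusted p of 0.0400.

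The COR15A difference between SA triplets depended on the scaling, and that of COR47 did not. Under quantile normalization COR15A was 0.28 higher in SA triplet 3 than in SA triplet 1 (adjusted p = 0.224), and its F test gave an adjusted p of 0.413. That contrast also missed the threshold with median centring (0.0553), and without SA array 11 (0.0626) or replicate 2 (0.150). The F test also missed the threshold without the filter (0.0569), with median centring (0.132) and with plain eBayes (0.0609). It missed it too without replicate 1 (0.0984) or replicate 2 (0.300). The same was so when SA array 11, 12, 14, 16, 17 or 18 was left out singly (0.0515 to 0.119). Under quantile normalization COR47 was 1.11 higher, and its F test gave an adjusted p of 0.0183. COR47 passed both tests in each single-array omission, with differences of 1.08 to 1.44.

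Among the silwet arrays none of the 4 genes passed the F test over triplets, with adjusted p of 0.660 for GI, 0.500 for COR27, 0.796 for COR15A and 0.747 for COR47, where 1.14% of tested probe sets passed. COR27 was 0.82 lower in silwet triplet 2 than in silwet triplet 1, with an unadjusted p of 0.0153 and an adjusted p of 0.381. GI was 0.93 higher in silwet triplet 3 than in silwet triplet 2 (standard error 0.45, adjusted p = 0.876), and 0.43 higher without silwet array 6. The ranges of the 3 triplet means were 0.49 with SA and 0.93 with silwet for GI, 0.75 with SA and 0.82 with silwet for COR27, 0.70 with SA and 0.28 with silwet for COR15A, and 1.29 with SA and 0.46 with silwet for COR47.

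Replicate numbers separated COR47 and no other of the 4 genes at the threshold. Over 6 arrays each, COR47 averaged 9.94 ± 0.53 on replicate 2, 10.43 ± 0.34 on replicate 3 and 10.52 ± 0.55 on replicate 1 (SD). In the fit with replicate number beside the 6 groups it was 0.58 lower on replicate 2 than on replicate 1 (standard error 0.13, adjusted p = 0.0245), where 2.77% of tested probe sets were lower at the threshold, and the F test gave an adjusted p of 0.0255, where 8.49% of tested probe sets passed (limma). The F test no longer passed without any one of silwet arrays 2, 4, 5 and 8 or SA arrays 11, 14 and 16 (0.0505 to 0.0664). It also missed the threshold without replicate 2 (0.766) or replicate 1 (0.104), or with no groups in the fit (0.373). The call between replicates 2 and 1 was lost without silwet array 2, 4, 5, 7 or 8 (0.0559 to 0.0653). That call was also lost without SA array 11 (0.0577) or 16 (0.0739), or with no groups in the fit (0.320). COR27 was 0.53 lower on replicate 2 and 0.47 lower on replicate 3 than on replicate 1, with standard errors of 0.16 and an F test at 0.0778, which passed with array weights (0.0291). GI and COR15A had adjusted p of 0.355 and 0.240.

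Within a triplet, SA and silwet arrays of the same number moved together, most of all for GI. For GI the deviations from the group mean had the same sign in 9 of 9 pairs, for COR47 in 8, for COR27 in 7 and for COR15A in 6, against a median of 6 over all tested probe sets. In replicate 3 of triplet 2, GI lay 0.98 below its group mean with SA (-0.98) and 1.01 below it with silwet (-1.01). Those arrays, SA array 15 and silwet array 6, also had the lowest medians of all 18, at intensities of 29.7 and 32.2. The part of overall signal in GI's level there was not tested. In replicate 2 of triplet 2, COR27 deviated by -0.62 with SA and by -0.56 with silwet. COR47 deviated in that pair by -0.39 with SA and by -0.44 with silwet. GI lay above its group means in that pair, by 0.50 with SA and by 0.37 with silwet.

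**Figure D3:**
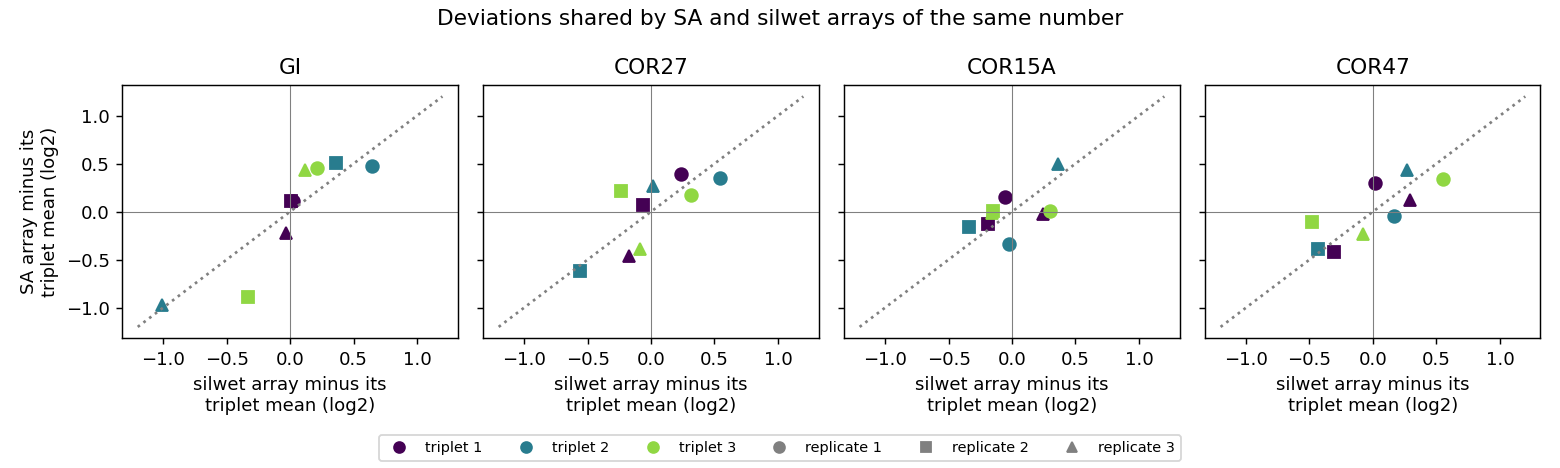
Deviation of each SA array from the mean of its SA triplet (vertical axis) against that of the silwet array of the same triplet and number (horizontal axis), in log2 signal, for the 4 genes. The dotted line marks equal deviations. For GI the pair of replicate 3 in triplet 2 lies at -0.98 with SA and -1.01 with silwet, and all 9 pairs have one sign.

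Over the 18 arrays the 4 genes did not follow one course. COR15A and COR47 were alike, with a Pearson correlation of 0.85, and COR47 was the 3rd most similar of the other 13651 tested probe sets to COR15A. COR27 correlated at 0.42 with COR15A and at 0.42 with COR47, and GI correlated at 0.16 with COR27, -0.10 with COR15A and 0.17 with COR47. With the group means taken out, COR15A and COR47 still correlated at 0.79. All arrays share the treatments, triplets and replicate pairs that move many transcripts, so these values describe the arrays only.

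The named probe sets most like each gene differed too. For GI they were AT4G38350, AT3G50370, AT1G02020, AT1G62020 and TKL, with correlations of 0.91 to 0.93 over the 18 arrays. TIC, a nuclear clock regulator, correlated with GI at 0.87 and was 51st of all. For COR27 they were AT2G23910 at 0.85, AT2G20550 at 0.83, AT4G33980 (also called COR28) at 0.83, AT3G05250 at 0.78 and AT3G59350 at 0.76. For COR15A they were COR47, the defensin-like gene LCR69 at 0.85, AT5G55640 at 0.84, AT3G51510 at 0.84 and COR15B at 0.83. For COR47 they were AT2G03550 at 0.88, AT1G21790 at 0.87, AT1G76020 at 0.86, COR15A and AT3G02910 at 0.85.

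Of 47 clock genes listed, 8 were named by the annotation and tested: GI, COR27, AT4G33980, AT5G52660, AT1G69570, TIC, XCT and SPY. None of the 8 passed between SA and silwet in any triplet, in the F test of a differing effect, or over the triplets of either treatment. The shares of all tested probe sets that passed were 12.3%, 0.3% and 0.0146% in triplets 1, 2 and 3, 8.36% for a differing effect, 30.1% over the SA triplets and 1.14% over the silwet triplets. The median SA minus silwet difference of the list was -0.14 in triplet 1, 0.09 in triplet 2 and 0.05 in triplet 3, against -0.05, -0.00204 and -0.02 over all tested probe sets. Of the list, AT4G33980 was 0.65 lower on replicate 2 than on replicate 1 (adjusted p = 0.0455, limma), where 2.77% of tested probe sets were lower at the threshold, and its F test gave 0.0538. It missed the threshold with plain eBayes (0.0579), median centring (0.0656), no filter (0.0733) or no groups in the fit (0.238), and passed in 7 of 18 single-array omissions, with adjusted p of up to 0.119. It lay at 6.64 and 6.07 on SA array 14 and silwet array 5, the arrays on which COR27 was also lowest of its treatment. TIC lay at 5.97 on SA array 15 and at 5.34 on silwet array 6, where GI was lowest too.

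Of 51 cold genes listed, 7 were named and tested: COR15A, COR47, COR15B, COR27, AT4G33980, the dehydrin LTI30 and STZ, a zinc-finger repressor also listed as ZAT10. In triplet 1, COR15B fell and STZ rose with SA, and the other 5 did not pass, where 6.11% of tested probe sets passed in the lower direction and 6.19% in the higher. COR15B had log2 signals of 10.46, 9.60 and 9.95 on SA arrays 10 to 12, against 10.93, 10.75 and 11.05 on silwet arrays 1 to 3, and fell by 0.91 (standard error 0.22, adjusted p = 0.0137). The 2 sets do not overlap, as was so with SA lower for 17.8% of tested probe sets in triplet 1. STZ had 9.55, 8.63 and 9.37 on these SA arrays, against 8.60, 7.74 and 8.24 on these silwet arrays, a rise of 0.99 (standard error 0.31, adjusted p = 0.0494) (limma). COR15B missed the threshold without silwet array 3 (0.0566) or SA array 11 (0.0757). It also missed it without replicate 2 (0.108) or replicate 3 (0.152). STZ passed narrowly: it missed the threshold with plain eBayes (0.0548), quantile normalization (0.0559), median centring (0.0568), no filter (0.0668) or array weights (0.104). It passed in 6 of 18 single-array omissions and in 0 of 3 omissions of a replicate number, with adjusted p of 0.0302 to 0.250. Without SA array 10, which stood apart in RNA quality, STZ was 0.80 higher with SA (adjusted p = 0.159). The list's median difference was -0.17 in triplet 1, 0.07 in triplet 2 and 0.29 in triplet 3. With pairs as a block COR15B and STZ had adjusted p of 0.00107 and 0.00159 in triplet 1, and COR15A and COR47 passed too, as given above, where 26.1% of tested probe sets passed.

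Of the 7 cold genes, 3 were higher in SA triplet 3 than in SA triplet 1, 1 was lower and 3 did not pass. COR47, COR15A and COR15B were the higher ones, COR15B by 1.19 (adjusted p = 0.000604), and STZ was lower, falling by 2.16 (adjusted p = 7.27e-05), while COR27, AT4G33980 and LTI30 did not pass (limma); 16.9% of tested probe sets were higher at the threshold and 14.4% lower. The COR15A call was lost under quantile normalization (0.224) or median centring (0.0553), and without SA array 11 (0.0626) or replicate 2 (0.150). COR15B, which encodes a chloroplast protein akin to that of COR15A, also passed the F test of a differing SA effect, with an adjusted p of 0.0267. It missed the threshold under median centring (0.0752), without replicate 2 (0.277) or replicate 3 (0.261), and when SA array 11, 12 or 17 or silwet array 1, 3 or 8 was left out singly (0.0502 to 0.0903). LTI30 had log2 signals of 11.02, 9.95 and 9.22 in SA triplet 3, against 11.23, 9.64 and 9.10 in silwet triplet 3, so that replicate 1 was the highest under both treatments. The leaf markers RCA and LHCB4.1 also had SA below silwet in all 3 pairs of triplet 1 and above it in all 3 pairs of triplet 3, by means of -0.33 and 0.17 for RCA and -0.31 and 0.12 for LHCB4.1, and with pairs as a block neither passed in triplet 1 (adjusted p = 0.0588 and 0.0636). LHCB4.2, the other leaf marker tested, had SA below silwet in 3 of 3 pairs of triplet 1 and above it in 2 of 3 pairs of triplet 3, by means of -0.23 and 0.05, with an adjusted p of 0.102 in triplet 1 with pairs as a block. The part of the leaf markers in the course of COR15A, COR15B and COR47 was not tested.

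**Figure D4:**
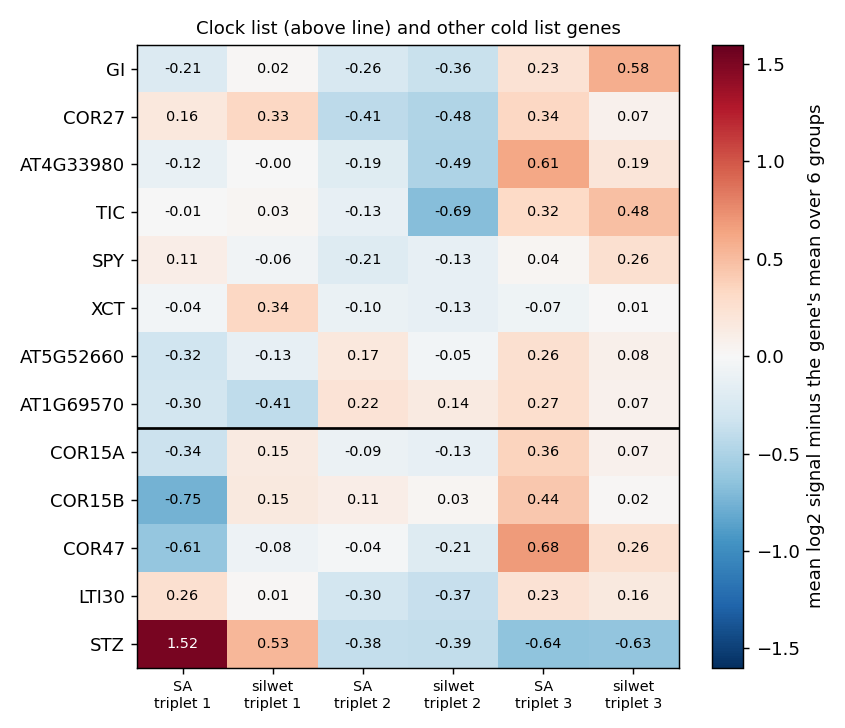
Mean log2 signal of each tested clock-list gene (above the line) and of the other cold-list genes (below it) in the 6 groups, minus the gene's mean over the groups; each value is a mean of 3 arrays. COR15A, COR15B and COR47 are at -0.34, -0.75 and -0.61 in SA triplet 1 and at 0.36, 0.44 and 0.68 in SA triplet 3, and STZ is at 1.52 and -0.64.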

How the data were processed

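The authors deposited intensities, 1 linear MAS5 signal for each probe set on each array. The tool comes from the submitters' processing notes, which as given here name no version. Each array's mean without its highest and lowest 2% was 100.0, as judged from the values. No 2 arrays held the same values.

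Values under an array's 20th percentile (intensities of 4.36 to 6.66) were set to that percentile before taking log2. The 64 control probe sets and those with a mean log2 under the 40th percentile were left out, leaving 13652. One mean per treatment and triplet was fitted with limma 3.58.1 in R 4.3.3 (eBayes, with its trend and robust options), and p-values were adjusted by Benjamini-Hochberg over all tested probe sets, with a threshold of 0.05; replicate numbers were tested in the same fit with the number added. Differences are on the floored log2 scale. Python 3.11.15 gave means, SDs and correlations.

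The 4 genes, the gene lists and the tests were chosen with earlier results of these data known. Contrasts of triplet 3 with 1 and the fit with 9 pairs were added after the values were seen. Besides the 4 genes, up to 3 clock and 3 cold genes with the smallest p per F test and the 5 most alike named probe sets were named; LTI30, TIC, RCA, LHCB4.1 and LHCB4.2 were described after their values were seen. Of 22810 probe sets, 13513 name 1 gene, 503 several and 8794 none here; 13436 of the 13513 matched the NCBI genes of TAIR10.1, which served for names and neighbours only.

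The replicate numbers, read from the titles, pair the arrays by the data: deviations of same-numbered SA and silwet arrays of a triplet correlated at 0.26 to 0.73 (9 pairs), and those of other numbers at -0.53 to 0.05. Deviations from a group's own mean cancel out within the group, so the second range is not independent of the first. The fits were tested on simulated data. Alternatives changed the floor, filter, scaling, weights, block and arrays used. The number of arrays limits the precision.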

Additional observations from a re-analysis of the deposited data

Results flagged for a closer look

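GI had a log2 signal of 6.90 on silwet array 6, far below the other 8 silwet arrays: the gap to the next array was 0.629 of the whole range, above the 95% critical value of 0.493 for 9 values. Chance passes about 5% of groups by this measure. SA array 15, of the same triplet and number, had the lowest GI signal of the SA arrays, at 7.03, with a gap of 0.301 of the range.

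The SA effect on COR47 differed between triplets with the pairs as a block (limma F test, adjusted p = 0.00728). Without the block the adjusted p was 0.288. All 3 of its pairs were lower with SA in triplet 1 and higher in triplet 3, where the mean difference was 0.42. The pairs of COR15B, RCA and LHCB4.1 turned in the same way, and the share of all tested probe sets that did is not given here. COR15A also differed in the paired fit (adjusted p = 0.0245), and so did STZ (adjusted p = 0.0154). Without the block these were 0.216 and 0.257. The COR15A call was also lost with the block and quantile normalization, and when some single pairs were left out. In the paired fit 21.4% of tested probe sets passed this F test, and 8.36% did without the block. COR15B differed in the fit of 6 groups (adjusted p = 0.0267, but 0.0752 under median centring, 0.277 without replicate 2, 0.261 without replicate 3, and up to 0.0903 in the 6 of 18 single-array omissions where it missed the threshold) and with the pairs as a block (adjusted p = 0.00206).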

How the results depend on the processing

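Repeated values covered the 4 genes, and COR15B, STZ and AT4G33980 in some comparisons only. The other tested list genes are not in these counts. Of 2307 repeated values, 2123 kept their direction and their side of the threshold. A further 85 lost a call, 45 gained one and 54 changed sign, none of a value that had been called. The causes of the changes were not tested. Numbers of called probe sets moved as follows. With the replicate number as a fixed replicate block, 2519 were called between SA and silwet in triplet 1 (1679 without it), 7 in triplet 3 (2), 1828 for a differing SA effect (1141) and 249 over the silwet triplets (155). With a random replicate block, 68 were called in triplet 2 (41 without it), 4 in triplet 3, 1721 for a differing effect and 244 over the silwet triplets. With the 9 pairs as a replicate block, 125 were called for the mean of the triplets (4), 3565, 224 and 39 in triplets 1, 2 and 3, and 2918 for a differing effect; with quantile normalization as well these were 3507, 217, 53 and 2873. Among the 4 genes the blocks changed no calls but those given above and that of COR47 between SA triplets 2 and 1, 0.58 higher, which had an adjusted p of 0.0245 with the fixed block and 0.137 without. With array weights, 69 were called in triplet 2, 41 in triplet 3, 1731 for a differing effect, 243 over the silwet triplets and 2006 over replicate numbers (1159). For the mean of the triplets, 7 were called with no filter, 2 with median centring and 0 with 2 groups of 9 arrays (238 at an unadjusted limma p under 0.05); in triplet 3, 4 with a filter at the 60th percentile and 0 with median centring (581 at an unadjusted p under 0.05). Over replicate numbers, 123 were called with the number alone and 97 with treatment beside it.

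With arrays, pairs or a replicate number left out, the numbers called were 0 to 8 for the mean of the triplets, 189 to 3516 in triplet 1, 0 to 319 in triplet 2, 0 to 83 in triplet 3, 71 to 2904 for a differing effect, 1843 to 4205 over the SA triplets, 23 to 190 over the silwet triplets and 14 to 1330 over replicate numbers. In triplet 1, the number was 931 with silwet array 3 left out, 957 with SA array 11 left out and 1021 with SA array 12 left out. Where none was called, 174 to 1249 had an unadjusted limma p under 0.05. Fewer arrays leave fewer degrees of freedom, and the highest 3516, 319, 83 and 2904 belong to the paired fit.

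Signs turned for small differences with no call. Quantile normalization gave -0.0027 for COR47 in the mean SA minus silwet difference, 0.0133 for GI between SA triplets 2 and 1 and -0.0116 for COR15A between replicates 3 and 1. Array weights gave GI differences of 0.0260 for the mean, 0.0278 in triplet 3 and 0.22 between SA triplets 2 and 1, and -0.0301 for COR15A in triplet 2. With arrays left out, the mean SA minus silwet difference ran from -0.33 to 0.0025 for GI, -0.0360 to 0.16 for COR27, -0.14 to 0.0137 for COR15A and -0.0598 to 0.11 for COR47. In triplet 1, COR27 ran from -0.36 to 0.0627. In triplet 2, GI ran from -0.41 to 0.59, COR27 from -0.21 to 0.38, COR15A from -0.21 to 0.22 and COR47 from -0.0482 to 0.37, and in triplet 3 GI ran from -0.57 to 0.10. Between silwet triplets 2 and 1, GI ran from -0.70 to 0.13 and COR47 from -0.28 to 0.0938. Between SA triplets 2 and 1, GI ran from -0.30 to 0.44 and COR15A from -0.0137 to 0.49; between SA triplets 3 and 2, GI from -0.22 to 1.18; and between SA triplets 3 and 1, COR27 from -0.0573 to 0.37. COR47 ran from -0.18 to 0.0228 between replicates 3 and 1.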
